A study of Mus musculus with 24 samples.

Results

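Peaks of acetylated histone H3 lysine 27 (H3K27ac) in the mouse forelimb bud were followed from embryonic day 10.5 (E10.5) to E11.5. Peaks of each of the 2 E10.5 libraries lying within 1000 bp of each other were joined. The joined intervals of both libraries were then pooled, again joining those within 1000 bp, into 16540 regions. Of these, 7883 held a peak of each library, though the peaks of the 2 libraries need not share a base. A region of both libraries was called kept when an E11.5 peak covered at least 1 bp of it and absent otherwise, and an E11.5 peak was called new when it touched no E10.5 region. The comparison used 3 of the 24 samples of the series, and 58161 of the 175212 peaks in its 10 peak lists. The series examined H3K27ac, trimethylation of the same residue (H3K27me3) and gene expression in early limb buds.

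The E10.5 group was forelimb bud tissue of C57BL/6J embryos with 2 H3K27ac libraries, and the E11.5 group was the same tissue and strain with 1 library. All 3 were immunoprecipitated with Abcam antibody ab4729 and sequenced from both fragment ends, but one antibody lot was used at E10.5 and another at E11.5, so effects of stage and of lot cannot be told apart. The growth protocol of the E11.5 sample names day 10.5, whereas its title and stage label give E11.5, which was followed. Whole buds hold several cell types, so fewer cells of a type and less acetylation per cell cannot be told apart. The labels do not tie the 2 E10.5 libraries to separate litters, so their spread may be technical. With 1 E11.5 library no difference between the stages has a replicate check, and no p-value is given.

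H3K27ac marks nucleosomes at active promoters and enhancers, while H3K27me3 is placed by Polycomb repressive complexes at silent developmental genes. The early limb bud is a small outgrowth of mesenchyme in which a proximal domain, defined by the homeodomain factors Meis1 and Meis2, lies next to the body wall. As the bud grows, distal cells fed by signals of the apical ridge and the posterior margin expand, Hox genes at the group 13 end of the HoxA and HoxD clusters come into use, and cartilage and tendon precursors begin to form.

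The deposited lists differ in size and form. E10.5 library 1 held 21363 peaks, which became 15026 joined intervals over 15.9 Mb, and library 2 held 13589 peaks, which became 9709 intervals over 8.43 Mb. The E11.5 list held 23209 peaks over 31.3 Mb, with no gap under 1001 bp between neighbours, so it needed no joining. The E11.5 list was 1.97 times as long as that of library 1 and 3.72 times as long as that of library 2. Sequencing depth is unknown for peak lists, so a longer list and a stronger mark cannot be told apart, and a region without a peak is one that did not reach the caller's threshold. For that reason covered bases are read in both ways below, as deposited and after scaling each E10.5 list to the E11.5 total.

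Most acetylated regions of E10.5 were still under a peak at E11.5. Of the 7883 regions of both libraries, 7124 were kept, or 90.4% (95% Wilson interval 89.7 to 91.0%, which covers counting error only). The other 759 were absent, which is the background share of 9.63% against which locus counts are read. Regions found in a single E10.5 library were kept in smaller shares, 54.1% of 7054 for library 1 and 40.2% of 1603 for library 2. For comparison within E10.5, 50.2% of the joined intervals of library 1 were found in library 2, and 79.0% of those of library 2 were found in library 1. The corresponding shares found at E11.5 were 73.1% and 80.8%. Each E10.5 library was thus recovered at least as often in the longer E11.5 list as in its own replicate.

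The footprint of a kept region, pooled over both E10.5 libraries, was close to that of its E11.5 peak. Each library alone covered at most the pooled length, so the ratio to a single library is at least as large. Among 6902 pairs of 1 region with 1 peak, the median E11.5 length was 1.08 times the E10.5 region's length. In 10.1% of the pairs the E11.5 peak was at least 2 times as long, and in 4.35% it was at most 0.5 times as long. The median kept region was covered over 95.8% of its length. A further 94 E11.5 peaks bridged 2 or more E10.5 regions, up to 7 under 1 peak.

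Length and score separated kept from absent regions. The median length was 1431 bp for kept regions and 883 bp for absent ones, a ratio of 1.62. The kept share was 56.8% of the 155 regions under 500 bp, 80.3% between 500 and 1000 bp, 93.1% between 1000 and 2000 bp and 98.3% between 2000 and 4000 bp. From 4000 bp upward 230 of 231 regions were kept, and the single absent one lay at Meis2. Ranked by the mean percentile of the authors' peak score within each list, the lowest of 4 equal groups of regions was kept in 78.5% of cases and the highest in 99.0%. The 2 properties were related but separable: among regions under 1000 bp the kept share was 75.8% for those below the median score percentile and 91.0% for those above it, and among longer regions it was 89.7% and 97.8%.

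New peaks made up 51.8% of the E11.5 list by number, 12030 of 23209, but 32.5% of its covered bases, 10.2 of 31.3 Mb. They were short, with a median of 539 bp against 1588 bp for the 7035 E11.5 peaks over regions of both libraries and 1211 bp for the 4144 over a region of 1 library. The new share was 91.0% of E11.5 peaks under 500 bp and 15.4% of those of at least 4000 bp, as the bars by length show. The E11.5 peaks of at least 1000 bp included 3058 new ones. The median distance of new peaks to the nearest E10.5 region of any library was 22.8 kb. Of the new peaks 30.3% lay within 10 kb of such a region and 14.2% beyond 100 kb. To the nearest region of both E10.5 libraries the median was 60.2 kb, with 13.6% within 10 kb and 36.1% beyond 100 kb. Absent regions lay a median of 26.6 kb from the nearest E11.5 peak, and 71 of the 759 lay within 2 kb of one.

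**Figure D1:**
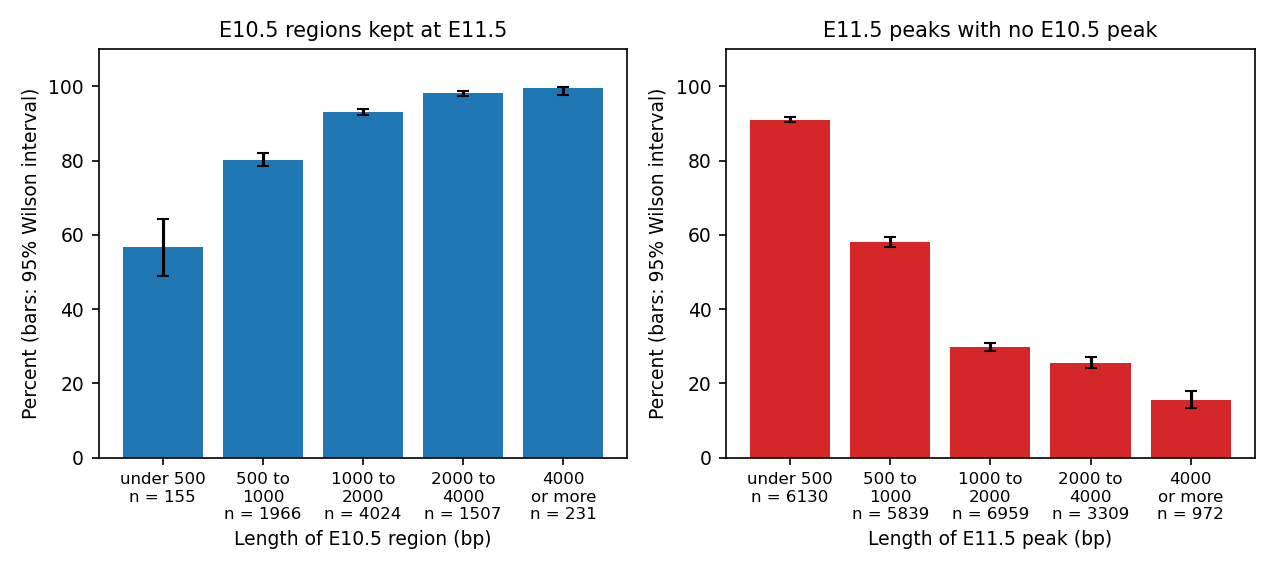
Percent of E10.5 regions of both libraries kept at E11.5 (left) and percent of E11.5 peaks with no E10.5 peak (right), by length in bp, with 95% Wilson intervals and the number of regions under each bar. The kept share climbs from 56.8% to 99.6% with length, and the new share drops from 91.0% to 15.4%.

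The kept, absent and new classes spread over all chromosomes. The absent share ran from 5.71% on chromosome X to 12.7% on chromosome 12, and the new share from 44.1% on chromosome 19 to 56.6% on chromosome 18.

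Genes were examined as windows of 25 kb on either side of 67 loci, whose mm9 positions come from general knowledge. Of these, 49 held a forelimb H3K27ac peak. E11.5 covered more bases than both E10.5 libraries in 37 windows, fewer than both in 5 and an amount between them in 7. After scaling to equal list totals the split reversed to 10 above and 27 below. In the background of 60 kb tiles with any peak, 71.7% were above both libraries as deposited and 5.54% were below both. In tiles with peaks in both E10.5 libraries these shares were 67.8% and 12.1%. Neither count of windows stands far from these shares, so the counts over all windows are no result about the loci, and the description rests on the size of the differences at each. The median ratio of E11.5 to mean E10.5 covered bases was 1.64 over 10804 tiles and 2.05 over the 47 windows with an E10.5 peak. Windows differ in width, from centre to edge 26.5 kb at Scx and 309.5 kb at Sox6, so the 2 medians are not like for like. The E11.5 list as a whole was 1.97 and 3.72 times as long as the E10.5 lists. The directions given next are as deposited. Scaling only raises the E10.5 values, so it can end a call above both but cannot end a call below both. The scaled reading is therefore given for windows above both and carries no weight for those below. It also multiplies kept peaks by 1.97 and 3.72, whereas in pairs of 1 region with 1 peak the median length ratio was 1.08. That ratio is to the region pooled over both libraries, so it is a lower bound for a single library. Windows of long, kept peaks can thus fall below both when scaled, as at HoxA, where library 2 became 130 kb. A call below both after scaling is therefore not read as a loss.

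The proximal genes Meis1 and Meis2 had fewer covered bases at E11.5, against the trend of the list. Meis2, a homeobox gene of the proximal limb, had 6.19 and 4.08 kb covered in the E10.5 libraries and 0 kb at E11.5. Its paralogue Meis1 had 9.98 and 6.75 kb at E10.5 and 1.20 kb at E11.5. Both windows were below both E10.5 libraries. The third proximal window with a peak, that of the retinoic acid-degrading enzyme gene Cyp26b1, which is a distal gene, had 5.20 and 3.42 kb at E10.5 and 7.74 kb at E11.5, above both as deposited and below both when scaled. The window of Aldh1a2, which encodes a retinoic acid-synthesizing enzyme, held no H3K27ac peak in the 3 libraries.

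The region at Meis2 was the best-scoring absent region of the whole comparison. It spans chr2:115885829-115893053 in mm9 (7225 bp), had a score percentile of 94.1, and lies at the end of the window where the gene begins. Library 1 covered 5869 bp of it and library 2 covered 3156 bp, and E11.5 covered none. At Meis1, the interval chr11:18913853-18921849 counted as kept by the overlap rule, but E11.5 covered only 1203 of its 7997 bp, and the neighbouring region chr11:18926107-18927698 was absent. The kept call there stands for a much shorter footprint. Over all kept regions, 390 of 7124 were covered over under 50% of their length at E11.5.

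The genome was also cut into 20 kb bins, of which 21859 held a forelimb peak. E11.5 covered at least 4 kb more than both E10.5 libraries in 731 bins (3.34%), and at least 4 kb less than both in 1 bin (0.00457%), which is the one at Meis2. The next bins in the order of deficit lay at Meis1 and HoxB, with 5963 and 4764 bp against 906 bp, and 4854 and 3604 bp against 955 bp. At a gap of 2 kb the counts were 2422 and 4. After scaling they were 453 and 120 at 4 kb.

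Other regions in these rankings were named only after their values had been seen. The second best-scoring absent region, chr17:83614774-83618346, lies at Pkdcc, which encodes a secreted kinase needed for limb bone growth, and was covered over 3516 and 1568 bp at E10.5. A region at Irx3, chr8:94323424-94325292, was covered over 1824 and 1849 bp at E10.5 and not at E11.5. Irx3 and Irx5 are neighbouring homeobox genes that act together in the early proximal and anterior limb bud, and the Irx5 window had 2.99 and 0.579 kb at E10.5 and 0 kb at E11.5. The Igfbp2 region, chr1:72870102-72874002, was covered over 2022 and 2127 bp at E10.5 and was absent at E11.5.

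Promoter sequences of the proximal genes Meis1, Meis2 and Irx3 are shown because their E10.5 acetylation lies at or near the start of each gene, as placed here, and was shorter or absent at E11.5. They are the 250 bases before the annotated start, from RefSeq on GRCm38.p6, a newer build than the mm9 of the peaks, so these positions cannot be set against the peak positions. Meis1 is at chr11:19018970-19019219, Meis2 at chr2:116064620-116064869 and Irx3 at chr8:91801655-91801904, all on the minus strand. Sequences run 5′ to 3′ in the direction of the gene, and capitals mark CCAAT or its reverse complement, GGGCGG or its reverse complement, and TGACAG, a Meis-type core, on either strand.
Meis1: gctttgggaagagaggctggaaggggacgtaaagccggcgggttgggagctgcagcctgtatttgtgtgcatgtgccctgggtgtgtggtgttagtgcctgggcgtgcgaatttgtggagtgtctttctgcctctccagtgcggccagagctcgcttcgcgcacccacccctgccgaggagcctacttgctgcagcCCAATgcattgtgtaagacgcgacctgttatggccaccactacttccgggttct
Meis2: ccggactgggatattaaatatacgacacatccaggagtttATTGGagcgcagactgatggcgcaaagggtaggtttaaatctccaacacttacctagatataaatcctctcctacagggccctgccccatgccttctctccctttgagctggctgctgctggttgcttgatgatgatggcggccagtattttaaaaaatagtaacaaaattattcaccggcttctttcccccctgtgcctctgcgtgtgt
Irx3: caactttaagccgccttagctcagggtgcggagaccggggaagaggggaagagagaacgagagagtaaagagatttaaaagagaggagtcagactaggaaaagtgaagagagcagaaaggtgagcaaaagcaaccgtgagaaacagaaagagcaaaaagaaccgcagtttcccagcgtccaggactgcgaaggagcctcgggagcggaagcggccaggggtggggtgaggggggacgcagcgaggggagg
Meis1 and Meis2 each held 1 CCAAT and Irx3 none. None of the 3 held GGGCGG or TGACAG, and no marked motifs overlapped. The promoter of Pkdcc, not printed, held GGGCGG 4 times and TGACAG 1 time. The motif TATAAA, searched but not marked, was found 1 time in Meis2 and not in the other 3 promoters. Of the 32851 promoters in the table, 33.9% held CCAAT, 32.7% GGGCGG, 15.9% TGACAG and 12.4% TATAAA in their 250 bases. The number of CG dinucleotides was 13 at Meis1, 7 at Meis2 and 13 at Irx3, against a median of 6. These are descriptions of letters and say nothing of what binds there.

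The Hox clusters divided along their length. Hox genes encode homeodomain factors that pattern the limb from shoulder to digit, and in the limb the HoxA and HoxD clusters are the most used. HoxB had 10.1 and 7.23 kb covered at E10.5 and 0.955 kb at E11.5, and HoxC had 13.02 and 3.62 kb and then 2.21 kb. Both were below both E10.5 libraries. HoxA had 45.0 and 35.0 kb at E10.5 and 54.3 kb at E11.5, and HoxD had 32.6 and 21.5 kb and then 42.2 kb, each above both as deposited and below both when scaled. Over the 4 clusters, 8 of the 20 regions of both libraries were absent (40.0%, against 9.63% of all regions). Of their 17 E11.5 peaks 4 were new (23.5%, against 51.8% of all E11.5 peaks).

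Cutting each cluster window at its middle, a split made after the values were seen, separated the 2 directions. On the side of HoxD that holds Hoxd13, covered bases were 27.9 and 18.6 kb at E10.5 and 42.2 kb at E11.5. On the other side they were 4.70 and 2.86 kb at E10.5 and 0 kb at E11.5, where the regions chr2:74587476-74588482 and chr2:74590575-74591698 were absent. The Hoxa13 side of HoxA had 36.5 and 32.2 kb at E10.5 and 51.9 kb at E11.5, while its other side had 8.43 and 2.80 kb and then 2.42 kb. All forelimb H3K27ac peaks of the HoxB and HoxC windows lay on the side away from group 13. On the 4 sides away from group 13, E11.5 was below both E10.5 libraries. The HoxA and HoxD sides with group 13 were above both as deposited and below both when scaled.

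At the group 13 ends the E11.5 acetylation reached into E10.5 H3K27me3. In the HoxA window, E11.5 covered 16.0 kb that neither E10.5 library had covered, and 12.3 kb of this lay where both E10.5 H3K27me3 libraries had a peak. In HoxD the newly covered bases came to 14.9 kb, of which 8.53 kb lay over such H3K27me3. The E10.5 libraries themselves overlapped this H3K27me3 over 1.48 and 0.579 kb in HoxA and 5.64 and 0.817 kb in HoxD. In HoxB the E10.5 H3K27ac libraries did not overlap this H3K27me3, and in HoxC they did so over 0.454 and 0.397 kb, so bases no longer covered at E11.5 could hardly lie over it there. One E11.5 peak near Hoxd13, chr2:74492910-74500091 (7182 bp), had 512 bp covered in library 1 and none in library 2. No H3K27me3 list of E11.5 was analysed here, so the state of that mark at the later stage was not tested.

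**Figure D2:**
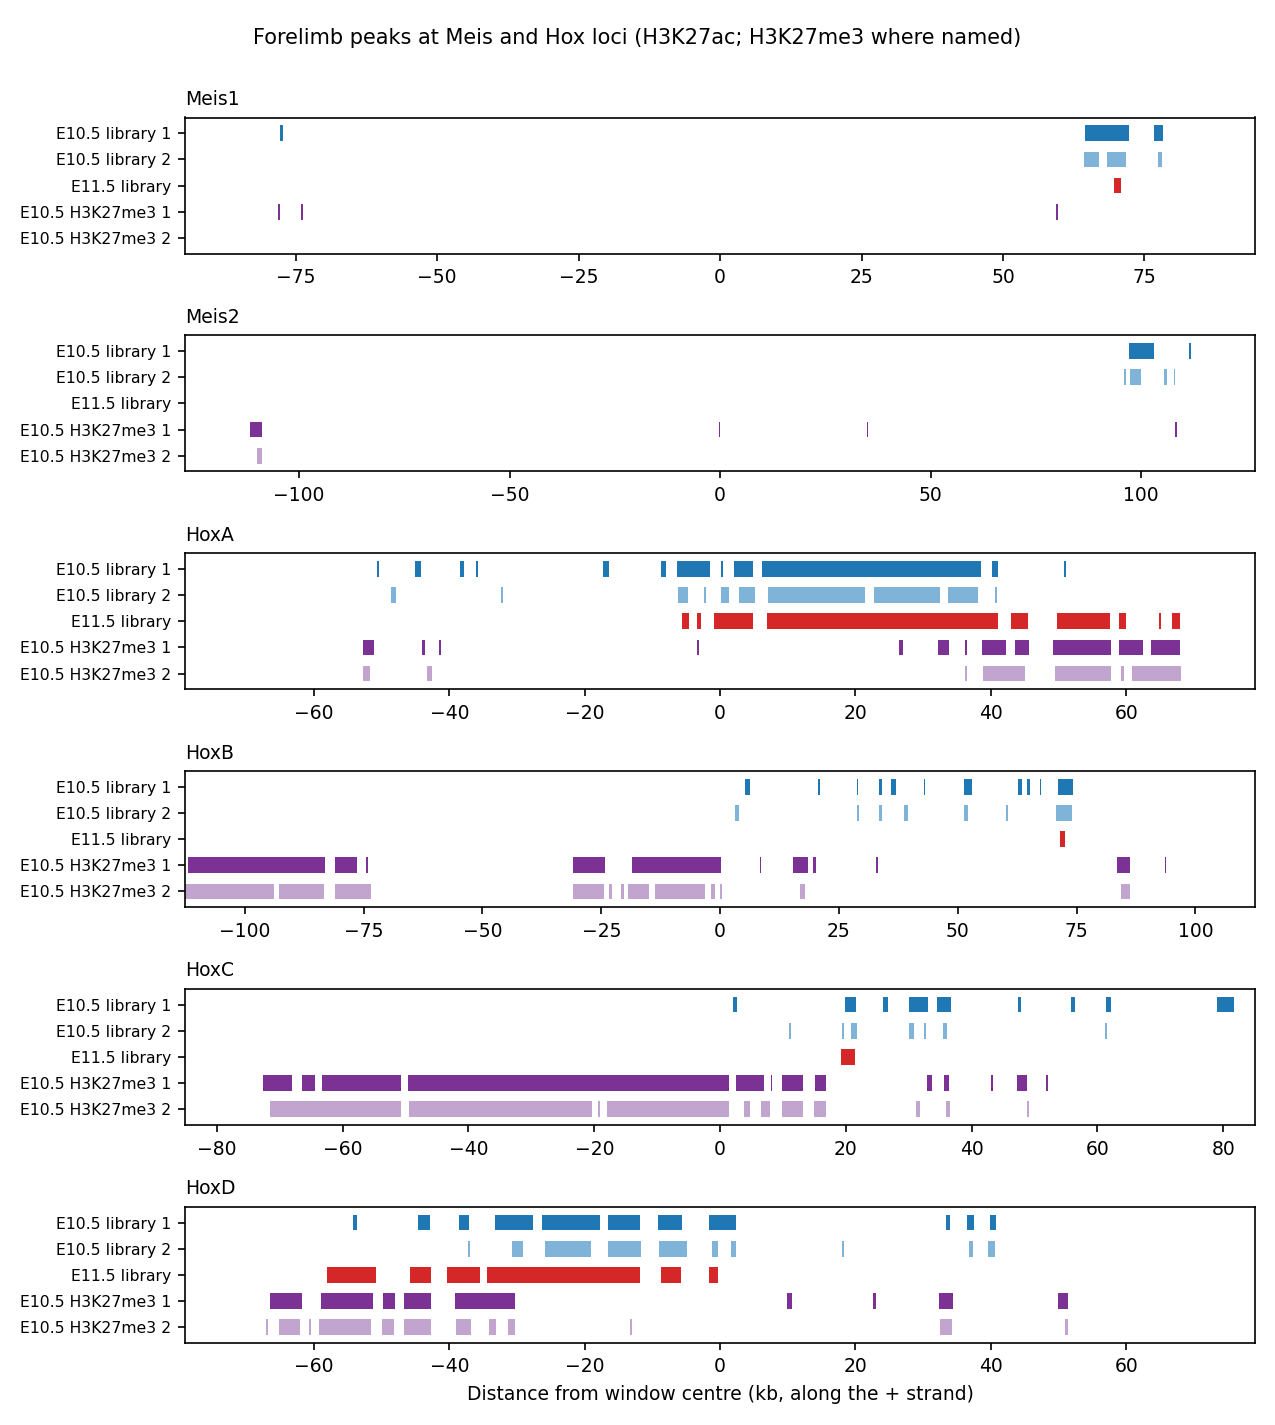
Peaks in the windows of Meis1, Meis2 and the 4 Hox clusters, by distance in kb from the window's centre along the plus strand; blue bars are the E10.5 H3K27ac libraries, red bars the E11.5 library and purple bars the E10.5 H3K27me3 libraries. Meis2 has no E11.5 bar, and the red bars of HoxA and HoxD extend into purple intervals at the group 13 end, on the right in HoxA and on the left in HoxD.

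Loci of limb identity still carried the mark. Of the 4 windows with a peak, 2 were above both libraries as deposited, against 71.7% of tiles, and 2 between. When scaled none was above and 2 were below. The window of Tbx5, the T-box gene required to start the forelimb, had 24.7 and 20.9 kb covered at E10.5 and 33.8 kb at E11.5. Of its 2 regions 0 were absent. Over the list 1 of 8 regions was absent (12.5%), a region of 1781 bp at Tbx3. These are too few to set apart from the 9.63% of all regions. The Tbx5 value was above both as deposited and below both when scaled. Tbx4, the hindlimb counterpart, had 7.51 and 3.72 kb and then 14.5 kb, above both as deposited and between them when scaled. Tbx3 and Tbx2, T-box genes of the bud margins, were between the E10.5 libraries, at 3.41 and 2.10 kb at E11.5. The hindlimb genes Pitx1 and Isl1 held no peak in any of the 3 libraries, whereas Tbx4 held peaks in all 3.

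Among loci of posterior signalling, Hand2 and Ptch1 had the largest differences. Of the 6 windows with a peak, 5 were above both as deposited, near the 71.7% of tiles, and when scaled 2 were above and 2 below. Hand2, which encodes a transcription factor upstream of Shh, had 6.55 and 4.26 kb at E10.5 and 20.1 kb at E11.5. Ptch1, the hedgehog receptor and a target of the pathway, had 6.82 and 4.20 kb and then 17.5 kb. Of its 8 E11.5 peaks 5 were new, against 51.8% of all E11.5 peaks. Hand2 and Ptch1 were above both libraries as deposited and when scaled. Gli3, the repressor of the pathway, had 5.76 and 4.91 kb and then 10.9 kb, which was below both when scaled. The target Gli1 was between the libraries at 3.49 kb. Shh itself, expressed in a small posterior group of cells, held no peak. The window of its distant limb enhancer held 0.287 kb in 1 E10.5 library and 0.301 kb at E11.5. These were different sites: the E10.5 interval, chr5:29638022-29638308, had no E11.5 peak, and the E11.5 peak, chr5:29641633-29641933, was new. Grem1, a BMP antagonist, had 0.686 and 0 kb and then 1.25 kb. Both the enhancer window and Grem1 were between the libraries when scaled. No region of the list was absent among 9, too few to set apart from the 9.63% of all regions.

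Mesenchymal signalling and patterning loci followed. In all 16 windows a peak was found. As deposited 13 were above both, against 71.7% of tiles, 3 between and 0 below. When scaled 3 were above and 11 below. The 3 above both either way were Bmp7, Bmp2 and Fgf10; the secreted signals Bmp4 and Wnt5a, above both as deposited, were between the libraries and below both, respectively, when scaled. Bmp7 had 4.15 and 3.58 kb at E10.5 and 23.6 kb at E11.5. Of its 11 E11.5 peaks 9 were new, against 51.8% of all E11.5 peaks. Bmp2 had 1.36 and 0.318 kb and then 5.77 kb. Fgf10, the mesenchymal signal that maintains the ridge, had 3.25 and 0.920 kb and then 10.7 kb. The 3 windows between the libraries as deposited were those of the transcription factor genes Prrx1, Shox2 and Alx4. Prrx1 (9.37 and 6.46 kb, then 9.21 kb) and Shox2 (8.47 and 6.45 kb, then 7.03 kb), a gene of the upper limb segment, had close values at the 2 stages, and Alx4 had 6.34 and 1.51 kb and then 4.72 kb. Other transcription factor genes of the list, Twist1, Lhx2, Lhx9, Lmx1b, Msx1, Msx2, Sall1 and Sall4, were above both as deposited and none of them was above both when scaled. The median ratio of E11.5 to mean E10.5 covered bases over the list was 1.86, against 1.64 over tiles. Tiles and windows differ in width, so this is not read as an excess.

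Skeletal and tendon loci had the highest median ratio among the limb lists, at 3.24 over 8 windows, against 1.64 over tiles. Widths differ between windows and tiles here too, so this is not read as an excess. All 8 windows with a peak were above both libraries as deposited, against 71.7% of tiles. When scaled 3 were above, 2 below and the rest between. Sox9, the master regulator of cartilage, had 0.598 and 0.322 kb at E10.5 and 2.81 kb at E11.5. Sox6, which works with Sox5 downstream of Sox9, had 5.39 and 2.36 kb and then 25.3 kb. Scx, the marker of tendon precursors, had 6.42 and 2.03 kb and then 13.9 kb. These 3 were the windows above both in either reading. Sox5 reached 23.96 kb from 12.9 and 2.12 kb, and Gdf5, a gene of future joints, reached 8.19 kb from 2.45 and 2.29 kb, and both lay between the libraries when scaled. Col2a1, a cartilage collagen gene, had 8.30 and 4.29 kb and then 13.7 kb, below both when scaled. Runx2 had 1.51 and 0.928 kb and then 2.78 kb, below both when scaled. Col1a1 had 3.385 and 1.188 kb and then 5.235 kb, between the libraries when scaled. Acan, Ihh and Nkx3-2 held no peak. None of the 13 regions of the list was absent, too few to set apart from the 9.63% of all regions. Of its 55 E11.5 peaks 30 were new, 54.5% against 51.8% of all E11.5 peaks.

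**Figure D3:**
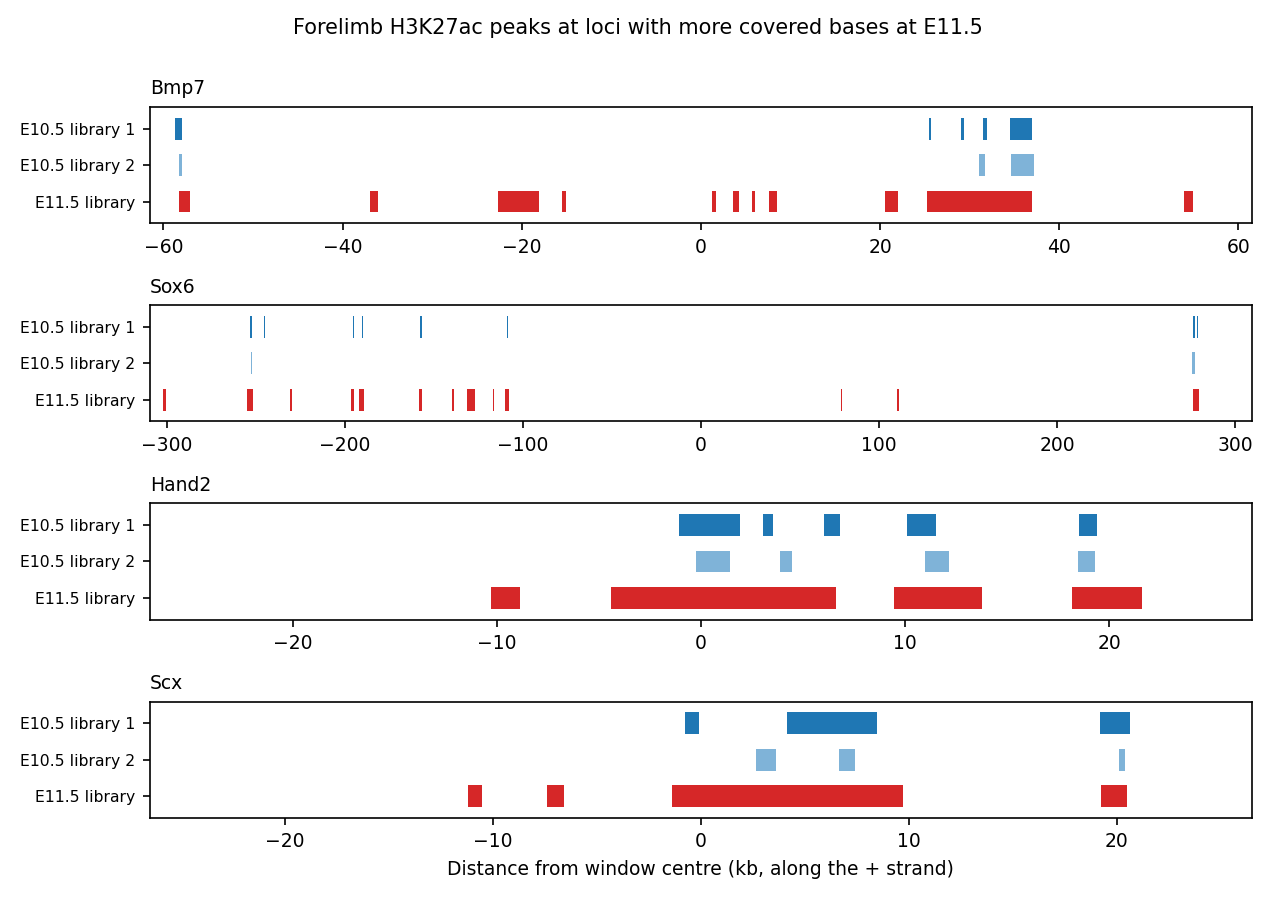
H3K27ac peaks in the windows of Bmp7, Sox6, Hand2 and Scx, by distance in kb from the window's centre along the plus strand, in E10.5 library 1 (dark blue), E10.5 library 2 (light blue) and the E11.5 library (red). At Hand2 and Scx the E11.5 peaks enclose most E10.5 ones. At Bmp7 9 of the 11 E11.5 peaks stand where neither E10.5 library has one, against 51.8% of all E11.5 peaks.

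Of the new peaks in these windows, those of Bmp7 and Ptch1 included long ones. A new peak of 4568 bp at chr2:172706843-172711410 lay in the Bmp7 window, and one of 6234 bp at chr13:63624633-63630866 in that of Ptch1. At Fgf10 a new peak of 3791 bp lay at chr13:119579220-119583010, and at Bmp2 one of 3464 bp at chr2:133390618-133394081. At Sox6 the longest new peak measured 4653 bp, at chr7:122766860-122771512. Enlargement of older peaks contributed as well: at Bmp7 an E11.5 peak of 11757 bp stood over 3372 and 3138 bp of E10.5 coverage, and at Scx one of 11097 bp stood over 5009 and 1731 bp. Positions are in mm9; exon and intron positions are not given, since no gene models of that build were used here.

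The longest new peaks of the genome ran from 7683 to 10406 bp, and each of the 10 was also under an E11.5 hindlimb peak. The longest E11.5 peaks over older regions included 52298 bp at Dnm3, 34228 bp over HoxA and 22625 bp over HoxD. The Dnm3 peak, chr1:163905988-163958285, covers a locus whose gene, named after its values were seen, hosts microRNA genes.

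Ridge loci were thinly covered. The apical ridge is a narrow strip of ectoderm and a small share of the bud. Fgf8, its main signal, had 0.902 and 0.636 kb at E10.5 and 0.375 kb at E11.5, below both. This depended on the window. With 5 kb on either side of the gene no peak remained in any library, so the difference was 0 kb. With 100 kb E11.5 exceeded the E10.5 mean by 1.39 kb. Sp8 had 0.651 and 0 kb and then 0.949 kb, between the libraries when scaled, and Dlx5 with Dlx6 had 0 and 0 kb and then 0.738 kb. Wnt7a and En1, ectodermal dorsoventral genes, held no peak.

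Windows of other cell types were empty or nearly so. Of the 4 muscle windows, Myod1, Myf5 and Pax3 were at 0 in all 3 libraries and Lbx1 had 0.304 kb in 1 E10.5 library only. The neural windows of Pax6, Sox2 and Pax2 were at 0 in all 3 libraries. Among 4 blood and endothelial windows, the alpha-globin cluster had 1.08 and 0.922 kb and then 2.25 kb, Gata1 had 0 and 0 kb and then 0.252 kb, and Hbb and Kdr were at 0. With 5 kb flanks the alpha-globin and Gata1 differences were both 0 kb, and the Gata1 window then held no peak. When scaled alpha-globin was between the libraries. Whether chromatin of these cells has a part in other results was not tested. The housekeeping windows were also above both as deposited: Actb had 5.10 and 3.84 kb and then 6.53 kb, and Gapdh had 3.29 and 2.09 kb and then 6.12 kb, and both were below both when scaled.

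**Figure D4:**
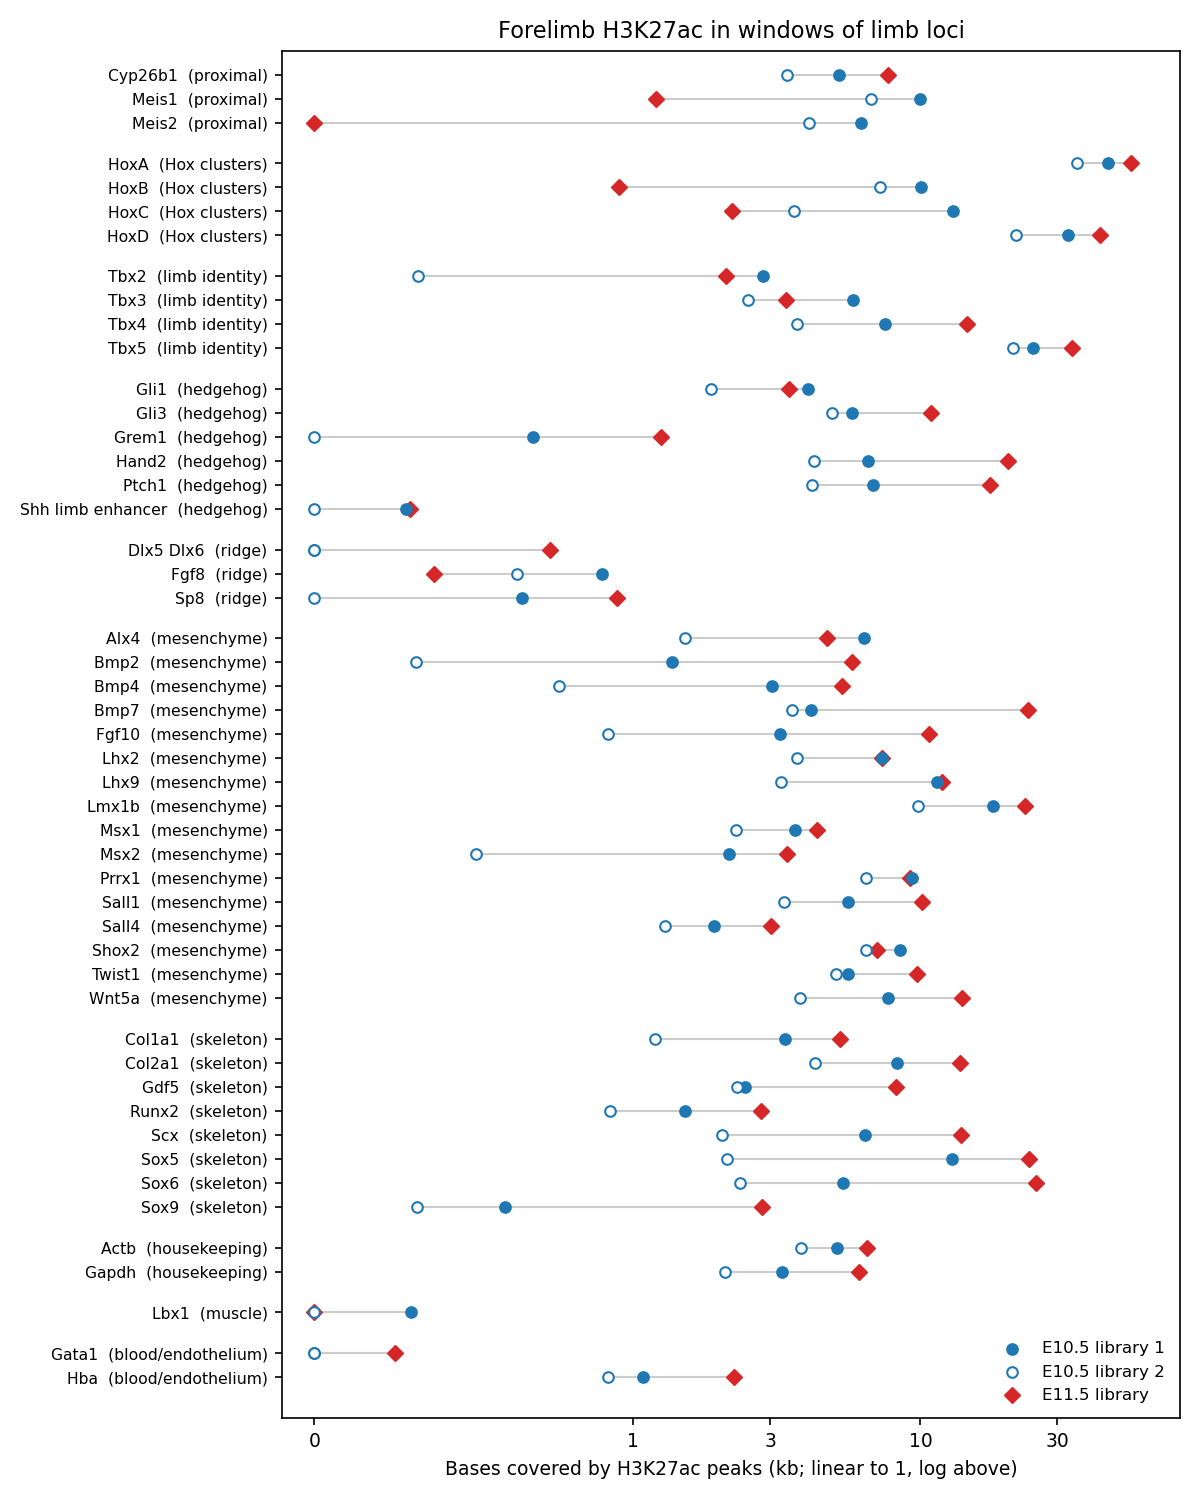
Bases covered by forelimb H3K27ac peaks (kb, linear to 1 and logarithmic above) in the 49 windows with a peak, grouped by list; filled and open blue circles are E10.5 libraries 1 and 2, red diamonds the E11.5 library. Diamonds lie right of both circles in 37 windows and left of both in 5: Meis1, Meis2, HoxB, HoxC and Fgf8.

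Lists that took no part in the classes separated them further. H3K27me3 of the same tissue at E10.5 was found over absent regions more than over kept ones: 16.3% against 1.24% in H3K27me3 library 1 and 10.8% against 0.828% in library 2, with Wilson intervals that do not meet. New peaks stood over it least, at 0.324% and 0.183%. They are shorter than kept regions, and new peaks of at least 1000 bp stood over it at 0.654% and 0.229%. Read from the other side, 74 of the 125 regions over H3K27me3 of both libraries were absent, or 59.2% (50.4 to 67.4%), against 8.19% (7.60 to 8.83%) of the 7655 regions over no H3K27me3. These 2 sets had median lengths of 1342 and 1371 bp. Within lengths of 1000 to 2000 bp the absent shares were 57.1% of 42 and 5.74% of 3934. Under 1000 bp they were 91.7% of 48 and 18.7% of 2037. From 2000 bp they were 17.1% of 35 and 1.19% of 1684, so most long regions over H3K27me3 were kept. The 2 sets were not matched by score. With the regions in the locus windows left out, 64.3% of those over H3K27me3 were absent. Regions near each other are not independent, so the intervals are too narrow by an unknown amount.

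Hindlimb H3K27ac, from separate libraries, covered the new peaks at E11.5 far more than at E10.5. New forelimb peaks lay under an E11.5 hindlimb peak in 65.1% of cases. The share was 6.30% and 7.71% in the single E10.5 hindlimb libraries, 11.49% in either and 2.53% in both. For new peaks of at least 1000 bp the shares were 95.2% at E11.5, 21.6% in either E10.5 library and 5.33% in both. The E11.5 hindlimb list was 47.2 Mb long, and it shares its antibody lot with the E11.5 forelimb list. Absent regions were covered in the E11.5 hindlimb list in 44.4% of cases, against 99.3% of kept regions, and in both E10.5 hindlimb libraries in 43.1% against 77.05%. Of the 759 absent forelimb regions, 337 thus had an E11.5 hindlimb peak.

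Covered bases in the hindlimb windows can be set beside these. Of the 37 forelimb windows above both libraries, 34 were also above both in the hindlimb, where 84.3% of tiles were above both. Of the 5 below both, Meis1, Meis2 and HoxB were also below both in the hindlimb, where 3.10% of tiles were. Meis1 had 8.88 and 14.1 kb in the E10.5 hindlimb libraries and 5.87 kb at E11.5, and Meis2 had 7.48 and 9.46 kb and then 6.35 kb. Hindlimb Meis2 thus still held covered bases where the forelimb list held none. The Irx3 and Pkdcc windows were at 0 kb at E11.5 in both limbs. Igfbp2 differed: its window still had 1.58 kb in the E11.5 forelimb, from 3.31 and 2.13 kb, and in the hindlimb it had 1.23 and 0.749 kb at E10.5 and 6.91 kb at E11.5.

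**Figure D5:**
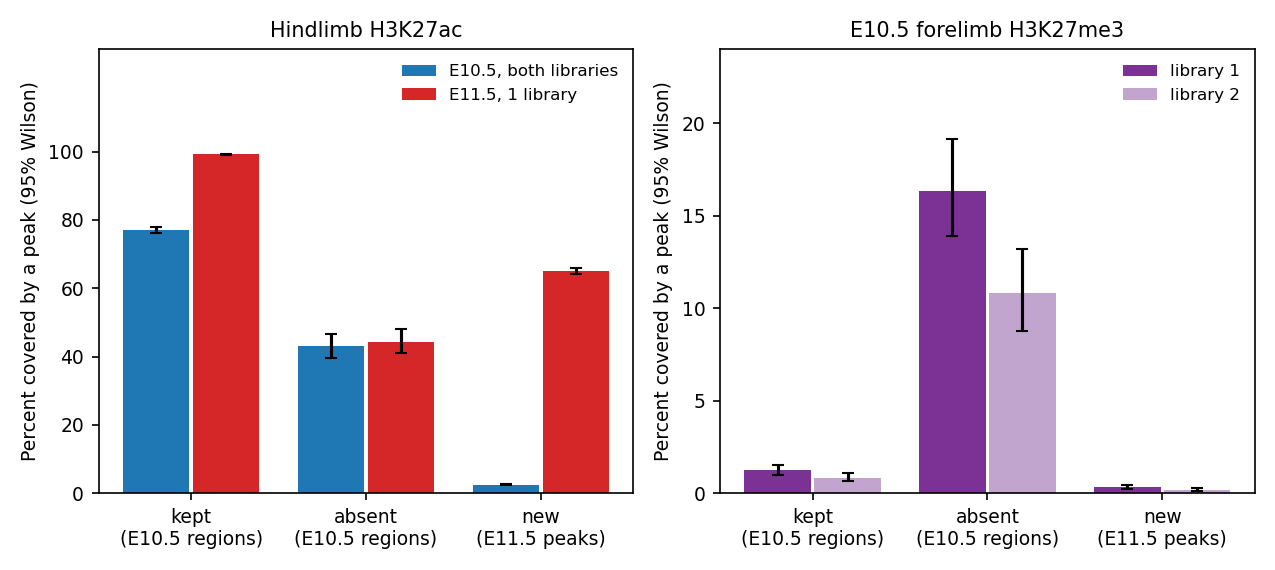
Percent of kept regions, absent regions and new peaks covered by hindlimb H3K27ac peaks (left; E10.5 in both libraries, blue, and E11.5, red) and by E10.5 forelimb H3K27me3 peaks (right; 2 libraries), with 95% Wilson intervals. New peaks are covered at E11.5 in the hindlimb in 65.1% of cases, and absent regions carry the highest H3K27me3 share, 16.3% and 10.8%.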

How the data were processed

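H3K27ac peak lists of 2 E10.5 libraries and 1 E11.5 library of forelimb buds were compared. E10.5 H3K27me3 lists of the forelimb and H3K27ac lists of the hindlimb served as other readouts. The submitters' processing notes name the build mm9, Bowtie 0.12.3 and MACS 1.37, and the E10.5 peaks were called at a p-value threshold of 1e-05, per the file headers. Each E10.5 peak carries a score deposited by the authors, used only for ranks within a list. The E11.5 lists have no score; the threshold behind them is not given in the sources used. There is 1 list per library.

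E10.5 peaks were joined within 1000 bp, first in each library and again when the 2 libraries were pooled. Regions and peaks were classed by overlaps of at least 1 bp. Covered bases were summed in windows (25 kb flanks), 60 kb tiles and 20 kb bins with Python 3.11.15 and numpy 2.4.6. Intervals are 95% Wilson. Classes were recovered on simulated data. Regions and bins were named by rule: the 10 best-scoring absent regions, the 10 longest new and 10 longest older E11.5 peaks, the 10 bins of largest excess and deficit, and all windows; those of chief interest are printed. The Tfap2b and Irx5 windows were added outside these rules, after their values were seen. Members and lists were chosen with earlier results of these data known. Windows were placed from general knowledge of mm9. All 79 loci, including 13 named after their values were seen, lay on the chromosome given by a GRCm38.p6 gene table, in its order on 15 of 15 chromosomes, and with a span within 15 kb of it. Not analysed here were hindlimb H3K27me3, input and mRNA samples. One window of the lists is not reported here. Alternatives were other joining distances, overlaps, score and length minimums, flanks, scaling and single libraries.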

Additional observations from a re-analysis of the deposited data

Results flagged for a closer look

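The windows of HoxC and Fgf8 had totals that differed in opposite directions in the 2 limbs between E10.5 and E11.5. In the HoxC window the forelimb had 13.02 and 3.62 kb covered at E10.5 and 2.21 kb at E11.5, while the hindlimb had 28.6 and 35.0 kb and then 38.5 kb. In the Fgf8 window the forelimb had 0.902 and 0.636 kb and then 0.375 kb, while the hindlimb had 1.05 and 0.940 kb and then 1.13 kb. On the side of the HoxC window away from group 13, which holds all the forelimb peaks, the hindlimb had 7.37 and 8.503 kb and then 5.87 kb, so there both limbs had fewer covered bases at E11.5. The larger hindlimb total came from the group 13 side, with 21.3 and 26.5 kb and then 32.6 kb, where the forelimb had 0 kb at both stages. The forelimb Fgf8 difference was 0 kb with 5 kb flanks, where no peak remained, and 1.39 kb in favour of E11.5 with 100 kb flanks. With 1 E11.5 library per limb the difference between the limbs was not tested.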

How the results depend on the processing

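No paired analysis was possible because E11.5 has a single forelimb library. The kept share was 85.4% when 50% of a region had to be covered, 95.1% for the upper 50% of each E10.5 list by score, and 73.6% with E11.5 peaks of at least 1000 bp. Under the same 3 settings the absent regions numbered 1149, 236 and 2078, the new share was 64.3%, 64.1% and 27.2%, and the length ratio of kept to absent regions was 1.36, 1.44 and 1.65. The length ratio of older to new E11.5 peaks was 2.31 with 50% coverage and 1.10 with E11.5 peaks of at least 1000 bp. Without joining, the kept to absent ratio was 1.43. Leaving out 1 E10.5 library moved the kept share to between 73.1% and 80.8%, the absent number to between 1862 and 4047, the new share to between 54.4% and 67.6%, and the 2 length ratios to between 2.39 and 2.80 and between 2.44 and 2.65. It gave 37 to 43 windows above and 5 to 12 below, and 753 to 1055 bins more and 1 to 6 fewer covered by 4 kb. A gap of 2 kb gave 2422 and 4 bins, and scaling gave 453 and 120.

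Scaling to equal list totals gave 10 windows above both and 27 below both, against 37 and 5. By its construction it raises each E10.5 value, so a window below both could not leave that call. For the same reason windows of long, kept peaks can turn negative under scaling, which is not read as a loss. The E11.5 minus E10.5 difference in covered kb turned negative under it for 19 windows above both as deposited: HoxA -55.2, HoxD -29.9, Tbx5 -29.5, Lmx1b -12.9, Lhx2 -6.80, Actb -5.65, Lhx9 -5.48, Twist1 -5.21, Gli3 -3.90, Cyp26b1 -3.75, Msx1 -3.48, Col2a1 -2.48, Sall1 -1.61, Sall4 -1.26, Gapdh -1.02, Wnt5a -0.69, Hba -0.53, Runx2 -0.44 and Col1a1 -0.32. With 100 kb flanks the Fgf8 difference became 1.39 kb; the cause was not tested. Depth is unknown, so absence at E11.5 is absence from a list.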

Other observations

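Loci named from the longest new peaks and the bins of largest excess, after their values had been seen, lay outside the gene lists. The window of Wwp2, host gene of the cartilage microRNA miR-140, had 3.34 and 1.45 kb covered in the E10.5 forelimb libraries and 42.6 kb at E11.5. Of its 22 E11.5 peaks 17 were new, against 51.8% of all E11.5 forelimb peaks. The hindlimb had 2.14 and 2.10 kb in the Wwp2 window and then 45.6 kb. The Jazf1 window went from 5.39 and 2.61 kb to 73.9 kb, and that of Ror2, a receptor for Wnt5a, from 8.07 and 7.68 kb to 43.7 kb. Mecom reached 114.5 kb from 26.6 and 13.8 kb. Each of these was above both E10.5 libraries as deposited and when scaled.

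Tfap2b, which encodes an AP-2 transcription factor, was in none of the rankings and was picked after its values had been seen. It had no forelimb H3K27ac peak at E10.5 and 7.08 kb at E11.5, in 1 new peak. Its window held 12.4 and 12.3 kb of H3K27me3 in the E10.5 forelimb libraries. The Irx3 and Irx5 windows, at 0 kb of H3K27ac at E11.5, held 6.51 and 5.75 kb and 9.62 and 6.83 kb of H3K27me3 at E10.5.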
